A study of Mus musculus with 8 samples.

Results

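Paraxial mesoderm is the tissue on either side of the neural tube. In the trunk it is laid down as presomitic mesoderm near the tail end of the embryo and then divides into somites, whose sclerotome gives rise to vertebrae and ribs and whose dermomyotome gives rise to skeletal muscle and dermis. In the head it stays unsegmented as cranial mesoderm and contributes to muscles of the head and to the skull. Eomes encodes a T-box transcription factor that acts in the primitive streak, where it is known to be needed for definitive endoderm and for anterior mesoderm.

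The cells described here are those that the authors' combined annotation called paraxial mesoderm in mouse chimeric embryos. These were 1085 of 28723 cells, of which 11 were Eomes-KO and 1074 were WT host. The embryos were WT C57BL/6 blastocysts injected with tdTomato-expressing Eomes-KO embryonic stem cells (ESC), collected at about E8.5 and pooled, about 4 embryos to a tube. Each of 4 pools was made with a different Eomes-KO ESC clone. The clones were made from a male tdTomato-expressing line by deleting the locus from intron 1 to intron 5. The paper calls them independent. Cell sorting split the pools into tdTomato+ Eomes-KO cells and tdTomato− host cells, which gave 8 droplet libraries of 3' mRNA, 4 of each genotype.

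No library held injected ESC without the deletion, so loss of Eomes and origin from injected ESC cannot be told apart. The Eomes-KO libraries held 602, 1153, 3346 and 3465 cells and the WT host libraries 2414, 3791, 5819 and 8133 cells, and each library is named by its number of cells. The cell table does not tie a library to its pool. The markers Tcf15, Meox1, Foxc2 and Pax3 could not be checked, because the cell table holds no gene counts. The table used here holds fewer cells of each genotype than the study states were kept, and the step that accounts for this is not given in the sources used here, so every denominator is that of the table. The cell type rests on the labels of the nearest cells in a reference atlas of mouse gastrulation.

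The library medians of unique molecular identifiers (UMIs, counted transcripts) per cell were 8901 to 32559.5 in the Eomes-KO libraries and 5124 to 11002 in the WT host libraries. The genotypes overlapped, since the Eomes-KO library of 3465 cells, at 8901, lay below the WT host libraries of 3791 and 5819 cells. A total of 80 cell barcodes occurred in more than 1 library. Among the paraxial mesoderm cells, 6 carried such a barcode, all of them WT host.

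The first comparison asked how many cells of each genotype reached paraxial mesoderm. Shares are given as a percentage of epiblast-derived cells, that is, of all cells outside the 4 types of extraembryonic origin (visceral and parietal endoderm, ExE ectoderm and ExE endoderm). Paraxial mesoderm made up 5.64%, 5.38%, 6.46% and 5.06% of the WT host libraries of 2414, 3791, 5819 and 8133 cells. It made up 0.166%, 0.0870%, 0.120% and 0.144% of the Eomes-KO libraries of 602, 1153, 3346 and 3465 cells. The genotypes did not overlap, and the spread within each was small beside the gap between them. The Eomes-KO shares rest on 1, 1, 4 and 5 cells in that order, so their spread is set by single cells. In the libraries of 602 and 1153 cells they lie below a floor of 3 cells (0.499% and 0.261%). The mean was 5.63% ± 0.599 (SD, n = 4) in WT host and 0.129% ± 0.034 (SD, n = 4) in Eomes-KO libraries.

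Paraxial mesoderm fell by 5.42 on the log2 scale in Eomes-KO cells (SE 0.44, adjusted p = 4.2e-08, edgeR's quasi-likelihood test over 33 cell types with Benjamini-Hochberg adjustment). Of these cell types, 48.5% were lower in Eomes-KO cells by the same test, so a fall on its own was common. Summed over libraries, 11 of 8561 Eomes-KO cells carried the label, or 0.128% (95% Clopper-Pearson interval 0.0642 to 0.230). Among WT host cells it was 1074 of 19284, or 5.57% (5.25 to 5.90), a ratio of 43.3 (24.1 to 87.1). These intervals cover counting error only.

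**Figure D1:**
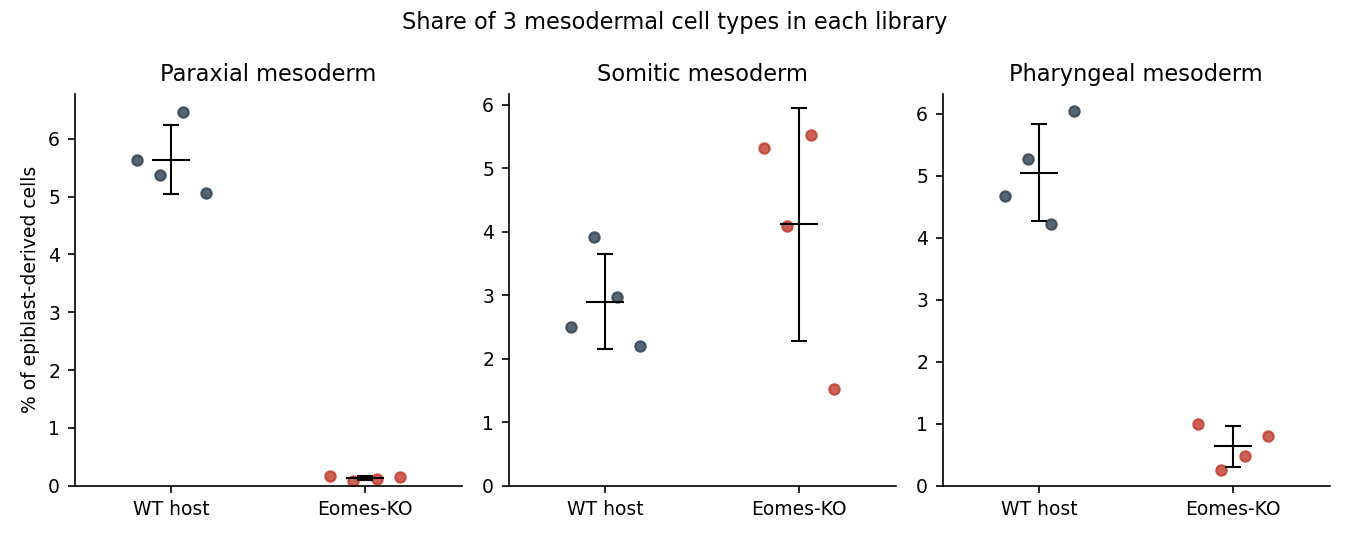
Share of paraxial, somitic and pharyngeal mesoderm in each library (y axis, % of epiblast-derived cells), with 1 point per library and the mean ± SD of 4 libraries in black. The 4 Eomes-KO libraries lie between 0.0870% and 0.166% for paraxial mesoderm, below all WT host libraries, whereas the genotypes overlap for somitic mesoderm.

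The fall was also present when only mesoderm was counted. Among the cells of 11 mesodermal types, paraxial mesoderm made up 13.6% to 21.0% of the WT host libraries and 0.142% to 0.340% of the Eomes-KO libraries. With these cells as the denominator the log2 fold change was −6.38. UMIs per cell were higher in 3 of the 4 Eomes-KO libraries than in any WT host library, and 7 Eomes-KO and 276 WT host members had at least 10000 UMIs. Among cells of at least that depth the log2 fold change was −5.32.

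Somitic and pharyngeal mesoderm, a posterior and an anterior mesodermal type, were set beside paraxial mesoderm. Somitic mesoderm held 317 Eomes-KO and 536 WT host cells and gave a log2 fold change of 0.49 (SE 0.41, adjusted p = 0.29, edgeR). Pharyngeal mesoderm, which lies in the head and gives rise to heart and branchial muscle, fell by 3.03 on the log2 scale, with 53 Eomes-KO and 1010 WT host cells (SE 0.42, adjusted p = 1.5e-05, edgeR).

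Paraxial mesoderm was compared with both within each library, as a log2 ratio of cell numbers with 0.5 added to each. The ratio of paraxial to somitic mesoderm was 1.16, 0.46, 1.12 and 1.2 in the WT host libraries of 2414, 3791, 5819 and 8133 cells. In the Eomes-KO libraries of 602, 1153, 3346 and 3465 cells it was −4.44, −4.98, −5.37 and −3.28. Paraxial cells outnumbered somitic cells in all 4 WT host libraries and were outnumbered in all 4 Eomes-KO libraries. The means differed by −5.50 (exact permutation test, two-sided, p = 0.029, adjusted over both ratios p = 0.029). With 4 against 4 libraries there are 70 arrangements, and 0.029 is the smallest p they allow.

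The ratio of paraxial to pharyngeal mesoderm was 0.27, 0.03, 0.61 and −0.25 in the same order of WT host libraries. It was −2.12, −1.22, −1.87 and −2.37 in the Eomes-KO libraries. The libraries did not overlap here either, and the means differed by −2.06 (exact permutation test, two-sided, p = 0.029, adjusted over both ratios p = 0.029). The fall of paraxial mesoderm was therefore larger than that of pharyngeal mesoderm in these libraries.

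The WT host members show what the label covers. Each cell also carried an extended atlas label, from the finer annotation of the same reference, and the original atlas label, all taken from the same 15 nearest atlas cells, so these labels are not independent of each other. The members carried 14 extended labels. The largest were anterior somitic tissues, with 24.7% ± 2.51 of the WT host members (SD, n = 4), and cranial mesoderm, the unsegmented head tissue, with 24.4% ± 6.99. Dermomyotome followed with 14.4% ± 3.28, sclerotome with 12.3% ± 3.96, the extended label that is itself called paraxial mesoderm with 8.92% ± 2.27, and posterior somitic tissues with 6.39% ± 1.49.

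Labels of heart and pharyngeal progenitors were also present, with anterior cardiopharyngeal progenitors at 4.94% ± 2.18 and cardiopharyngeal progenitors of the second heart field at 2.33% ± 1.44 (SD, n = 4). Embryo proper endothelium accounted for 1.04% ± 0.416. The other 5 extended labels held 8 members in all.

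Cranial mesoderm had the largest SD between the WT host libraries in percentage points, although the label of second heart field progenitors, at 0.741% to 4.21%, varied more relative to its mean. It made up 29.6%, 15.3%, 22.5% and 30.2% of the members in the libraries of 2414, 3791, 5819 and 8133 cells. Sclerotome made up 11.1%, 17.8%, 12.0% and 8.42% in the same order. The library of 3791 cells thus had the lowest share of cranial mesoderm and the highest of sclerotome. Over all of its epiblast-derived cells, this library also mapped latest, to a mean atlas day of 8.30, against 8.18 to 8.22 in the other 3 WT host libraries, and the part of this in the shares was not tested.

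**Figure D2:**
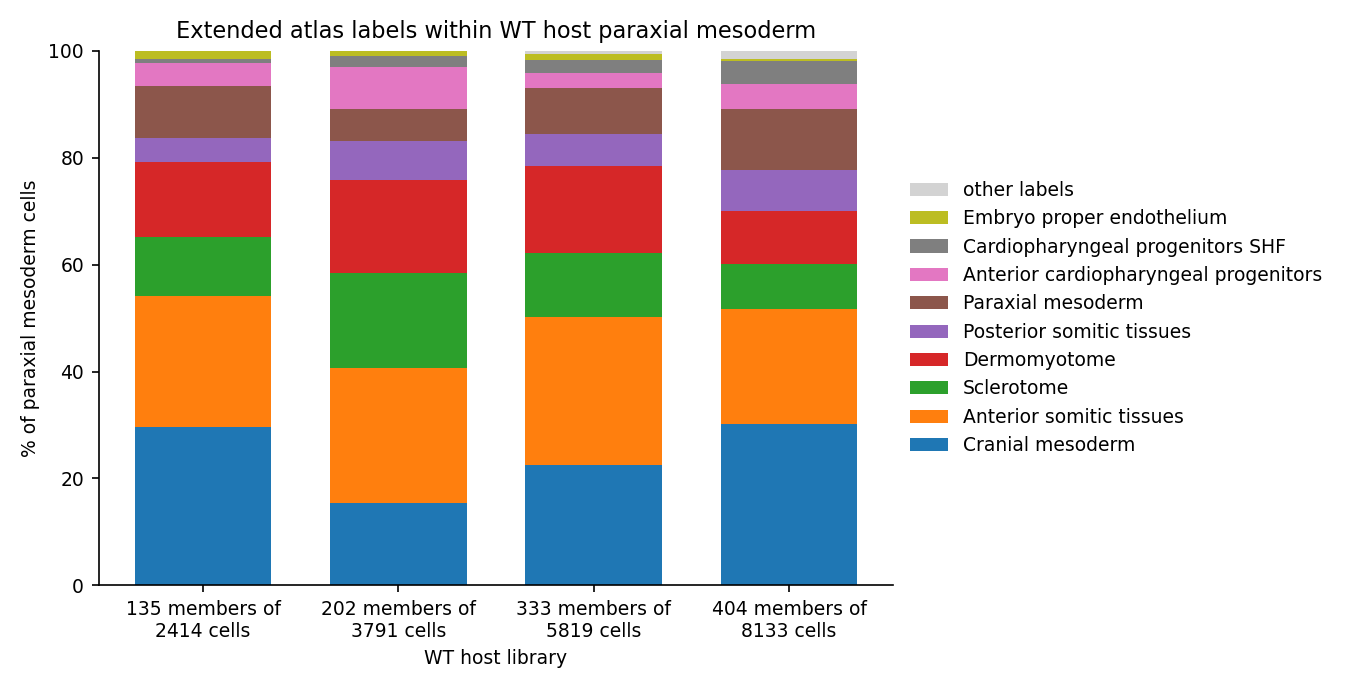
Extended atlas labels of the WT host paraxial mesoderm cells in each of 4 libraries (y axis, % of the paraxial mesoderm cells of the library, x axis, libraries by number of members and of cells). Cranial mesoderm and anterior somitic tissues lie at the base of each bar, and cranial mesoderm is smallest, at 15.3%, in the library of 3791 cells.

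Some of these finer labels lay almost wholly within paraxial mesoderm and others were split. All 125 WT host cells with the sclerotome label, 268 of 270 with cranial mesoderm and 263 of 264 with anterior somitic tissues were paraxial mesoderm in the combined annotation. Of the 165 WT host dermomyotome cells 148 were, and the other 17 were somitic mesoderm. Of the 86 posterior somitic cells 72 were.

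The extended label called paraxial mesoderm was different. Of its 379 WT host cells, 100 were paraxial mesoderm in the combined annotation (26.4%), 214 were intermediate mesoderm, and 53 were pharyngeal mesoderm. The same label was carried by 92 Eomes-KO cells, of which 4 were paraxial mesoderm in the combined annotation (4.35%) and 73 were intermediate mesoderm (79.3%). By library, 23.4% to 32.4% of the WT host cells with this extended label and 0% to 6.52% of the Eomes-KO cells were members. The libraries did not overlap, but the 2 smaller Eomes-KO libraries held only 8 and 6 such cells.

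The same name thus gave different results in the 2 annotations. The extended label called paraxial mesoderm made up 1.75%, 0.985%, 2.41% and 2.21% of the WT host libraries of 2414, 3791, 5819 and 8133 cells. It made up 1.33%, 0.522%, 0.957% and 1.33% of the Eomes-KO libraries of 602, 1153, 3346 and 3465 cells, and the genotypes overlapped. Its log2 fold change was −0.84 (SE 0.41, adjusted p = 0.071, edgeR over 69 extended labels), which did not pass the threshold of 0.05. When the WT host library of 3791 cells was left out it was −1.04 (adjusted p = 0.018), which did.

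The next comparison took the finer labels of both genotypes. A list of 10 extended labels of paraxial derivation was used, whether or not the combined annotation called their cells paraxial mesoderm. Endotome had no cells (0). Of the 9 other labels, 5 were lower in Eomes-KO cells, 1 was higher and 3 did not pass the test. Over all 69 extended labels tested, 63.8% were lower and 10.1% higher, so 5 of 9 is near the background. The median log2 fold change was −4.49 over the 9 labels and −3.13 over all 69.

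The labels grouped as anterior (cranial mesoderm, anterior somitic tissues, sclerotome and dermomyotome) were close to absent among Eomes-KO cells. Cranial mesoderm held 41, 31, 75 and 123 cells in the WT host libraries of 2414, 3791, 5819 and 8133 cells and 0 in all 4 Eomes-KO libraries. Its share was at least 39.9-fold lower, taken against a floor of 3 cells over the 4 Eomes-KO libraries, and 0 of 8561 cells allows a share of up to 0.035% (edgeR adjusted p = 8.9e-07). The 95% counting interval that is printed for the labels with Eomes-KO cells would begin at 32.2 here.

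Sclerotome held 15, 36, 40 and 34 WT host cells in the same order and 0 in every Eomes-KO library. It was at least 18.4-fold lower against the same floor, with a counting interval from 14.8 (edgeR adjusted p = 9.1e-06). Anterior somitic tissues held 33, 51, 92 and 88 WT host cells and 0, 0, 2 and 1 Eomes-KO cells in the libraries of 602, 1153, 3346 and 3465 cells, a ratio of 39.1 (13.2 to 191, counting error only, edgeR adjusted p = 8.9e-07). Dermomyotome held 21, 42, 59 and 43 WT host cells and 1, 1, 0 and 1 Eomes-KO cells, a ratio of 24.4 (8.21 to 120, edgeR adjusted p = 1.6e-05). No Eomes-KO library reached the lowest WT host share of any of these 4 labels. How many of all 69 extended labels were likewise apart is not given here, but 63.8% of them were lower by the edgeR test.

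Posterior somitic tissues also fell, despite their name. They held 7, 18, 23 and 38 WT host cells and 1 Eomes-KO cell, found in the smallest library, a ratio of 38.2 (6.67 to 1525, counting error only, edgeR adjusted p = 9.7e-05). No Eomes-KO member carried this label, since that cell was somitic mesoderm in the combined annotation.

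Presomitic mesoderm, the unsegmented precursor of somites, was the label that rose. It made up 1.13%, 1.86%, 1.14% and 2.28% of the WT host libraries of 2414, 3791, 5819 and 8133 cells. It made up 7.65%, 9.04%, 8.79% and 9.35% of the Eomes-KO libraries of 602, 1153, 3346 and 3465 cells, so every Eomes-KO library lay above every WT host library. The log2 fold change was 2.43 (SE 0.37, adjusted p = 1.3e-05, edgeR). None of its 768 Eomes-KO and 338 WT host cells (0) was paraxial mesoderm in the combined annotation, where 576 and 200 of them were intermediate mesoderm. A further 139 and 61 were lateral plate mesoderm, and only 53 and 76 were somitic mesoderm. Intermediate mesoderm of the combined annotation was itself higher in Eomes-KO cells (log2 fold change 1.88, adjusted p = 2.7e-05, edgeR). Shares are relative, so where some cell types are absent the others take up more of the total. The part of this in the rise of presomitic mesoderm was not tested.

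The other two labels of the tail end overlapped between genotypes. The extended label somitic mesoderm made up 0.46% to 1.86% of the WT host libraries and 0.26% to 2.90% of the Eomes-KO libraries (log2 fold change 0.85, adjusted p = 0.17, edgeR). Caudal mesoderm made up 0.17% to 0.53% and 0.20% to 0.87% (log2 fold change 0.88, adjusted p = 0.13, edgeR). In both, the Eomes-KO library of 3465 cells was the lowest of its genotype. Without it the log2 fold change was 1.27 for somitic mesoderm (adjusted p = 0.015) and 1.26 for caudal mesoderm (adjusted p = 0.031), and both passed.

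**Figure D3:**
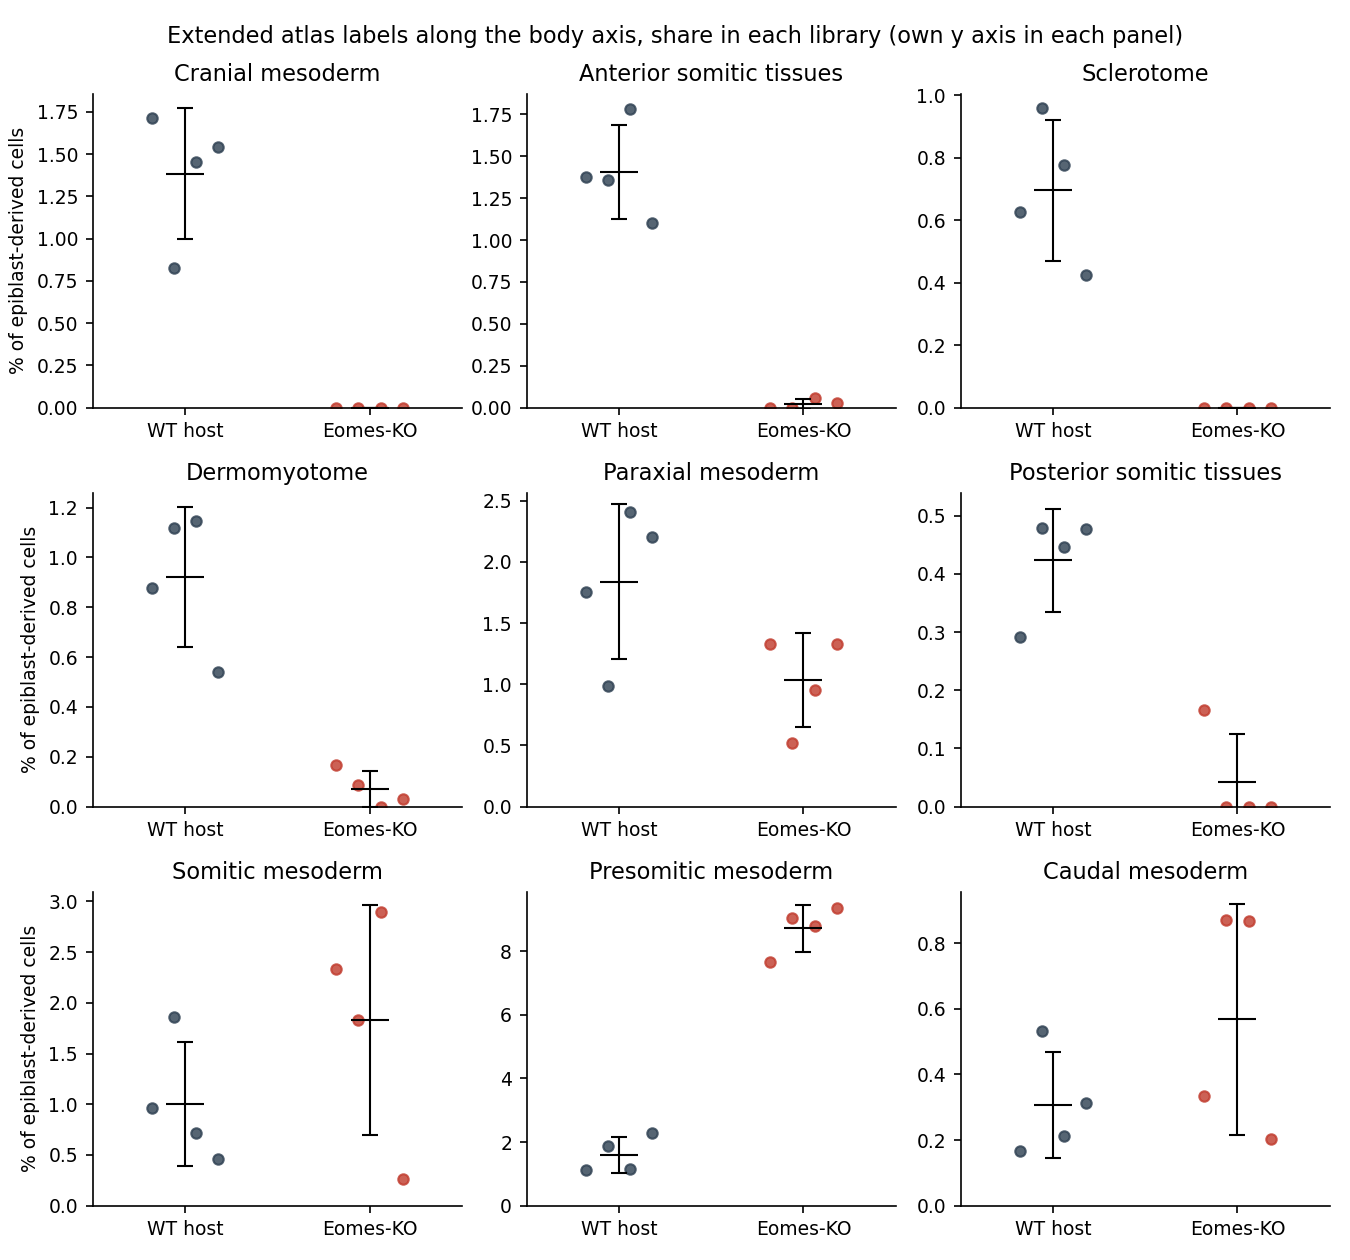
Share of 9 extended atlas labels in each library (y axis, % of epiblast-derived cells, with its own scale in each panel), with 1 point per library and the mean ± SD of 4 libraries in black. Cranial mesoderm and sclerotome are at 0 in all Eomes-KO libraries, presomitic mesoderm is higher in all 4, and the labels paraxial, somitic and caudal mesoderm overlap between genotypes.

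With presomitic mesoderm counted, the list as a whole was not smaller in Eomes-KO cells. Its labels made up 11.2% to 13.6% of the epiblast-derived cells of the Eomes-KO libraries (mean 12.3% ± 0.989, SD, n = 4) and 8.89% to 10.1% of the WT host libraries (mean 9.58% ± 0.561, SD, n = 4). All Eomes-KO libraries lay above all WT host libraries (exact permutation test, two-sided, p = 0.029). This sum rests largely on presomitic mesoderm, which held 768 of the 1056 Eomes-KO list cells and 338 of the 1854 WT host list cells. Presomitic cells were not paraxial mesoderm in the combined annotation. Without them the list made up a smaller share of every Eomes-KO library than of any WT host library. That difference was not tested.

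Cranial mesoderm, anterior somitic tissues, sclerotome and dermomyotome were grouped as anterior. Sclerotome and dermomyotome are derivatives of trunk somites, so the group is not strictly anterior. Posterior somitic tissues lie outside the group and fell too (ratio 38.2). Of the cells of the list, 51.6%, 42.7%, 51.2% and 38.6% carried a label of the group in the WT host libraries of 2414, 3791, 5819 and 8133 cells. In the Eomes-KO libraries of 602, 1153, 3346 and 3465 cells it was 1.39%, 0.704%, 0.441% and 0.515%, or 6 of 1056 cells over all of them. The means, 46.0% ± 6.43 and 0.762% ± 0.432 (SD, n = 4 each), differed by −45.3 percentage points (exact permutation test, two-sided, p = 0.029). This share recombines the label counts given above, with presomitic mesoderm in its denominator, so it is not separate evidence. The list was also chosen with earlier results of these data known. Without cranial mesoderm in the list the WT host libraries ranged from 26.5% to 42.9%, still apart from the Eomes-KO libraries.

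Each cell was also given the developmental stage of its nearest atlas cells. Of the WT host members, 7 mapped to E7.5, 24 to E7.75, 222 to E8.0, 575 to E8.25 and 246 to E8.5. The mean day per library was 8.24 ± 0.026 (SD, n = 4). Somitic mesoderm of the same libraries averaged 8.17 and pharyngeal mesoderm 8.19, and paraxial mesoderm mapped later than both in 4 of 4 libraries, by 0.072 and 0.059 days. Exact sign flips within 4 libraries cannot give a two-sided p below 0.12, which both differences reached, so no such difference within the host libraries can pass 0.05. Against all other epiblast-derived cells, at 8.22, paraxial mesoderm mapped later in 2 of 4 libraries.

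The finer labels were ordered in mapped stage. Cells with the extended label called paraxial mesoderm mapped earliest, with a mean day of 8.01 ± 0.058 (SD, n = 4). In each library 76.9% to 91.3% of them mapped to E8.0 or before and 0% to E8.5. Cranial mesoderm averaged 8.21 ± 0.0017, and the 4 libraries lay between 8.210 and 8.213. Posterior somitic tissues (8.24), anterior somitic tissues (8.26) and dermomyotome (8.26) differed by less than the spread between libraries of posterior somitic tissues (SD 0.056).

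Sclerotome mapped latest. Its mean day was 8.37, 8.42, 8.44 and 8.46 in the libraries of 2414, 3791, 5819 and 8133 cells (mean 8.42 ± 0.041, SD), and no WT host sclerotome cell (0 of 125) mapped before E8.25. The share at E8.5 was 46.7% to 85.3% per library. Sclerotome mapped later than dermomyotome, the other somite derivative, in 4 of 4 libraries, by 0.163 days (lowest 0.130, highest 0.201). Cranial mesoderm mapped earlier than anterior somitic tissues in 4 of 4 libraries, a mean difference of −0.044 days. The extended label and the stage come from the same nearest atlas cells, so this order also describes when each label occurs in the atlas.

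**Figure D4:**
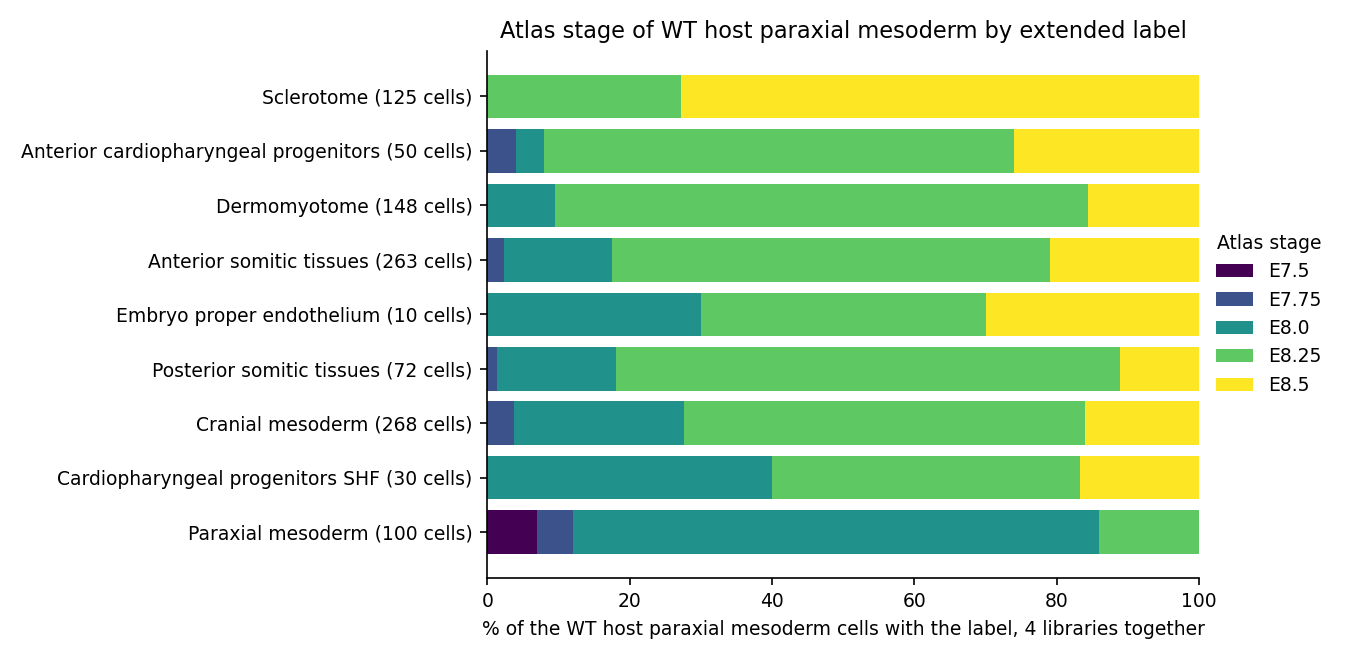
Atlas stage of WT host paraxial mesoderm cells by extended label (x axis, % of the cells with the label, 4 libraries together; y axis, label with its number of cells, ordered by mean day from the bottom). The label paraxial mesoderm has no cell at E8.5, and sclerotome has none before E8.25.

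The atlas stage also allowed the genotypes to be compared among cells of like stage. Among epiblast-derived cells mapped to E8.0, 5.20% of WT host cells (222 of 4268) and 0.0309% of Eomes-KO cells (1 of 3240) were paraxial mesoderm. At E8.25 it was 7.24% (575 of 7945) and 0.12% (4 of 3202). At E8.5 it was 4.49% (246 of 5484) and 0.128% (2 of 1568). The log2 fold changes fitted within these stages were −6.98, −5.71 and −5.07 (adjusted p = 2.2e-13, 1.6e-13 and 3.9e-07, edgeR), a split chosen after the data had been seen.

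The earliest cells were few. At E7.5, 5.34% of WT host cells (7 of 131, 95% Clopper-Pearson interval 2.18 to 10.7) and 4.11% of Eomes-KO cells (3 of 73, 0.856 to 11.5) were paraxial mesoderm, and the intervals overlapped. All 3 of the Eomes-KO cells came from the library of 3465 cells, and 6 of the 7 WT host cells from the library of 8133 cells. Without these libraries it was 1 of 55 WT host cells (1.82%) and 0 of 36 Eomes-KO cells, which allows a share of up to 8.33%. At E7.75, over all libraries, it was 1.65% (24 of 1456, 1.06 to 2.44) and 0.209% (1 of 478, 0.0053 to 1.16), and these intervals overlapped too. Of these 24 WT host cells, 19 came from the library of 8133 cells. By library the share at E7.75 ranged from 0.413% to 3.32% in WT host and from 0% to 0.758% in Eomes-KO. The intervals take the cells of all libraries together and cover counting error only. A difference at E7.5 was not detectable at these cell numbers.

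**Figure D5:**
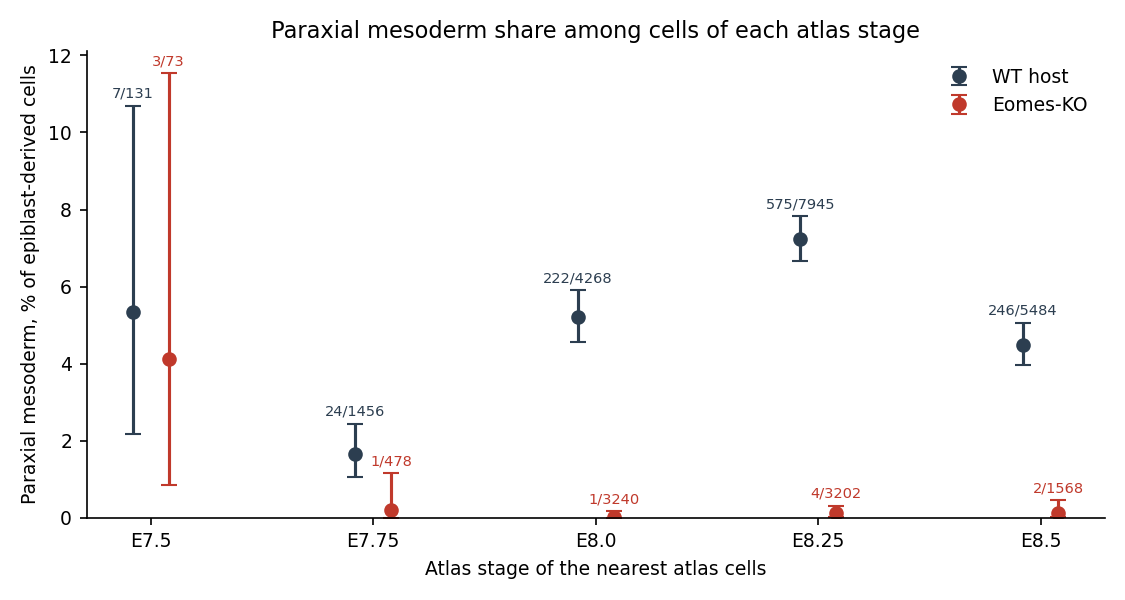
Paraxial mesoderm among epiblast-derived cells of each atlas stage (x axis, stage of the nearest atlas cells; y axis, % with 95% Clopper-Pearson intervals, libraries of a genotype together; the numbers give members and cells). The genotypes are apart from E8.0 to E8.5 and their intervals overlap at E7.5 and E7.75.

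The 11 Eomes-KO members are given as cells, since they were too few for shares by library. By extended label, 3 were anterior somitic tissues, 3 dermomyotome, 4 the label called paraxial mesoderm and 1 embryo proper endothelium. None (0) was cranial mesoderm, sclerotome or posterior somitic tissues. The libraries of 602 and 1153 cells each held 1 member, a dermomyotome cell mapped to E8.25 in both. The library of 3346 cells held 4 and that of 3465 cells held 5.

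By original atlas label they fell into 2 kinds. Of the 11, 7 carried the original label paraxial mesoderm, mapped to E8.0 (1 cell), E8.25 (4) and E8.5 (2), and had 4308 to 30689 UMIs. The other 4 carried the original label mixed mesoderm and the extended label paraxial mesoderm, and mapped to E7.5 (3 cells) and E7.75 (1). Among WT host members 8 of 1074 were of this second kind, or 0.745% (95% Clopper-Pearson interval 0.322 to 1.46), against 4 of 11 or 36.4% (10.9 to 69.2) in Eomes-KO. These intervals take the cells of all libraries together and cover counting error only. Of the 4 Eomes-KO cells 3 came from the library of 3465 cells, without which it was 1 of 6 (16.7%). Of the 8 WT host cells 6 came from the library of 8133 cells, without which it was 2 of 670 (0.299%). The WT host mixed mesoderm cells also mapped early, 6 of 8 to E7.5. By the original label alone paraxial mesoderm held 7 Eomes-KO and 1066 WT host cells, and the log2 fold change was −6.00.

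The label score tells how large a fraction of the 15 atlas neighbours agreed on the label given. For the original label the library median over WT host members was 1 in all 4 libraries, and 58.9% to 75.6% of members had that score. Somitic mesoderm had a median score of 0.767 ± 0.086 and pharyngeal mesoderm of 0.95 ± 0.033 (SD, n = 4). For the extended label the order turned. The median score was 0.542 ± 0.017 for paraxial mesoderm, 0.6 for pharyngeal mesoderm and 0.725 ± 0.096 for somitic mesoderm, and paraxial mesoderm was lowest in 4 of 4 libraries. The broad label was thus firmer than the finer label within it, which limits the finer shares given above.

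The Eomes-KO members had original label scores of 0.4 to 1, with a median of 0.933. The 7 with the original label paraxial mesoderm scored 0.6 to 1 and the 4 with mixed mesoderm 0.4 to 0.733. Sharing of atlas cells was counted for the single nearest atlas cell of each member, not for all 15 neighbours. The 1085 members had 877 different nearest atlas cells, with at most 7 members for any of them. Of the 11 nearest to Eomes-KO members, 2 were also nearest to a WT host member. How often WT host members shared one with each other was not measured, so the 2 of 11 has no baseline.

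Depth and RNA quality were compared with those of the other mesoderm of the same WT host libraries. The median UMIs per paraxial mesoderm cell were 7886, 9862, 9685 and 5124 in the libraries of 2414, 3791, 5819 and 8133 cells, higher than in somitic mesoderm in 3 of 4 and than in pharyngeal mesoderm in 2 of 4. Median mitochondrial reads made up 1.56% ± 0.262 of UMIs in paraxial and 1.82% ± 0.207 in pharyngeal mesoderm (SD, n = 4), lower in 4 of 4 libraries. Within the members, cranial mesoderm had fewer UMIs than anterior somitic tissues in 4 of 4 libraries, with differences of library medians from −1215 to −266. Sclerotome had fewer than dermomyotome in 4 of 4, with differences from −3155 to −125. The median doublet score was 0.2 ± 0.022, and the 11 Eomes-KO members had scores up to 0.33.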

How the data were processed

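The authors sorted dissociated chimeric embryos by tdTomato fluorescence and prepared 10x 3' libraries. UMIs were counted by the authors with Cell Ranger 6.0.1 on mm10 (also in the submitters' processing notes). The authors filtered cells on UMIs, genes, mitochondrial and ribosomal percent and removed doublets. The deposited table has 1 row per cell. It holds total UMI counts without normalization, the mitochondrial percent of UMIs, the authors' hybrid doublet score, and labels transferred from the nearest atlas cells, each with the fraction of 15 neighbours carrying it. It holds no gene counts, so expression was not tested. Genotype was taken from the tdTomato status of each library's cells.

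Numbers of cells per label were compared between genotypes with the quasi-likelihood test of edgeR 4.0.16 (R 4.3.3), taking epiblast-derived cells as library size without further scaling. Labels needed at least 10 cells, p-values were adjusted after Benjamini and Hochberg, and 0.05 was the threshold. The SE of a log2 fold change was derived from its F statistic. Cells entered only as sums. The p-values between genotypes rest on the spread between libraries, which edgeR estimates in part across all labels. They treat the 8 libraries as independent, although each pool was split into both genotypes. Named labels were those carried by at least 5 members or by an Eomes-KO member, and those of the list. The members and lists were chosen with earlier results of these data known. Alternatives were TMM scaling, DESeq2 1.42.0 size factors, limma 3.58.1, other denominators, filters and labels, and each library left out. Exact tests enumerated all arrangements of libraries.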

Additional observations from a re-analysis of the deposited data

Results flagged for a closer look

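The change of paraxial mesoderm differed from that of both neighbouring cell types by a test of the difference itself. The log2 ratio of paraxial to somitic mesoderm differed by −5.50 between Eomes-KO and WT host libraries, and the ratio of paraxial to pharyngeal mesoderm by −2.06 (exact permutation tests, two-sided, p = 0.029 each, the smallest that 4 against 4 libraries allow).

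Among 47 groups of 4 libraries examined for a library far from the others, 3 held one by Dixon's gap test. Chance gives about 1 in 20 where values are not tied, but in the last 2 of the 3 below the other libraries are tied, so any difference would be picked out. The WT host library of 3791 cells had a log2 ratio of paraxial to somitic mesoderm of 0.46, against 1.12 to 1.2 in the other 3. The same library had a median extended label score of 0.567, against 0.533 in each of the others. The Eomes-KO library of 602 cells held posterior somitic tissues at 0.166% of epiblast-derived cells, which is 1 cell, against 0 in the other 3.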

How the results depend on the processing

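No paired analysis was possible because the library names in the cell table do not give the embryo pool or clone, so pools could not be matched across genotypes.

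The fall of paraxial mesoderm kept its direction and passed in 23 of 24 alternatives. It did not pass for the extended label of the same name (−0.84, adjusted p = 0.071), which by construction covers other cells. Over the 8 fits without 1 library it ranged from −5.53 to −5.34 (adjusted p up to 4e-06). Size factors from DESeq2's ratio method moved it to −6.42 and its poscounts method to −4.85, and these scalings shift the median of all cell types by −0.91 and 0.60. The doublet filter gave −4.63, and leaving out shared barcodes gave −5.42. The last of these and the 3 stage splits were chosen after the data had been seen.

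The number of list labels lower in Eomes-KO cells was 5 in every alternative that kept all libraries and 5 to 6 without 1 library. The number higher was 3 with TMM and 3 with DESeq2 poscounts, which shift the median of all extended labels by 0.67 and 1.29, 2 with at least 10000 UMIs, and 1 to 3 without 1 library. The added labels were somitic and caudal mesoderm, the latter alone at 10000 UMIs. The extended label called paraxial mesoderm reversed with DESeq2 poscounts, to 0.40 (adjusted p = 0.50). Both log2 ratios and the anterior share kept their direction in all alternatives. Their p was the smallest the design allows throughout and so says nothing about stability. The ratio to somitic mesoderm ranged from −6.21 to −4.52, the ratio to pharyngeal mesoderm from −2.28 to −1.59, and the anterior share difference from −47.7 to −36.0 percentage points.

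For WT host members with at least 10000 UMIs, 1.98% to 49.0% of a library, dermomyotome was 18.5%, the extended label paraxial mesoderm 11.7%, posterior somitic tissues 8.27%, cardiopharyngeal progenitors of the second heart field 0.685% and embryo proper endothelium 2.11%. The mean day was 8.21, with 65.7% at E8.25 and 11.4% at E8.5. Medians were 11834 UMIs, 3399 genes, a doublet score of 0.339 and an original label score of 0.975. The library of 8133 cells gave 1.98% of its members to these values, and the cause was not tested. With an original label score of at least 0.5 these descriptions moved by less than 1 SD. The library median of that score was already 1 in all 4 libraries, so this says little about the finer labels. The descriptions were not repeated with a filter on the extended label score.

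The number of cells limits what can be said. A floor of 3 cells is 0.499% of the epiblast-derived cells of the Eomes-KO library of 602 cells and 0.0866% of the largest, and the smaller libraries held 1 member each.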
